A study of Mus musculus with 12 samples.

Results

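The Zfp-named zinc finger genes are the protein-coding genes of the deposited table whose symbol is Zfp followed only by digits. Zfp36, which encodes an RNA-binding protein of another finger type, was left out. A gene also had to reach a mean of 5 CPM (counts per 1e+06 counts of the library) in the 4 control libraries. Of 369 Zfp-named genes among the 43322 genes of the table, 237 met this rule, and all 237 passed the filter for testing. The members were thus chosen by their measured control level, which is given as a description only. Control CPM of the 237 genes, by column total, ran from 5.19 to 245.1 with a median of 14.5.

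Most of these genes encode C2H2 zinc finger proteins, in which each finger folds around a zinc ion and can read a few bases of DNA, and tandem arrays of fingers read longer sites. Many carry a KRAB domain, which binds the corepressor Trim28 and through it the histone methyltransferase Setdb1 and heterochromatin protein 1. KRAB zinc finger proteins are best known for silencing transposable elements and imprinted loci, and their genes lie in clusters that have expanded and diverged in mammals. Other members are activators, neural regulators, or proteins that act on RNA and ribosomes.

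Poly-A RNA was sequenced from primary cortical glial cells, which the submitters label as cultured astrocytes. The cells came from wild-type CD1 mice at postnatal days 3 to 5, with the frontal cortices of 1 mouse per preparation. They were grown in DMEM/F12 medium with FCS, HS, B27 and 10 ng/ml EGF, split after 7 days in vitro and used 3 to 7 days later. All groups shared this culture. The control group received vehicle. A second group received 3 µM thapsigargin for 60 min, an inhibitor of the SERCA pumps that load calcium into the endoplasmic reticulum. The last group was kept in calcium-free medium with the calcium chelator EGTA for 60 min. Each group had 4 libraries, which the series text calls biological replicates. The stated purpose was to profile calcium signalling genes that respond when SERCA is blocked or external calcium is removed.

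Library totals ran from 36191501 to 42569101 counts, and 17077 genes were tested. Replicate 4 stood apart in every group: its 3 libraries held 588 to 739.8 CPM of Xist, which coats the inactive X, and none of the other 9 exceeded 0.319 CPM. The astrocyte markers fixed for the label check were all present, from Slc1a3 at 2079 to 2953 CPM down to S100b at 5.00 to 14.8 CPM. Markers of other cells were present too, with Olig1 at 1103 to 1513, Col1a1 at 53.5 to 655.8 and Csf1r at 22.9 to 34.5 CPM. Of the neuron markers, Map2 was at 200.5 to 239.6 and Stmn2 at 110.4 to 159.5 CPM. Lowest in the neuron, oligodendrocyte lineage and vascular lists were Rbfox3, Sox10 and Cldn5, at or below 0.173, 0.119 and 0.0267 CPM. In bulk RNA, fewer cells of a type and less RNA per cell cannot be told apart.

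Promoters were available from RefSeq (build GRCm38.p6) for 191 of the 237 genes, as 250 bases before to 50 bases after the start. Those of the members with the largest changes after thapsigargin are shown, because the comparison below turns on these genes. Zfp51, Zfp623 and Zfp706 had no entry. Each is written 5′ to 3′ on the gene's strand, and capitals mark any match on either strand to 9 motifs. The motifs were CRE (TGACGTCA), AP-1 (TGANTCA), ATF4 (TGATGNAA), EGR (GCGNGGGCG), RBPJ (TGGGAA), E-box (CACGTG), ETS (CCGGAA), YY1 (ATGGCG) and NRF1 (GCGCANGCG). RBPJ and ETS share the letters GGAA, and none of the 9 contains another.
Zfp105 (chr9:122922828-122923127, plus strand): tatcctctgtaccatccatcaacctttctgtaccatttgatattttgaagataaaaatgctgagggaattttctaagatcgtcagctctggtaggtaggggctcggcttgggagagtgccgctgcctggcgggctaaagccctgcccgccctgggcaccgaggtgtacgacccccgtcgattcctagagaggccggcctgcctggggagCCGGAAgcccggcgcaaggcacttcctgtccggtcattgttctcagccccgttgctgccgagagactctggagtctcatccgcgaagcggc
Zfp267 (chr3:36150830-36151129, plus strand): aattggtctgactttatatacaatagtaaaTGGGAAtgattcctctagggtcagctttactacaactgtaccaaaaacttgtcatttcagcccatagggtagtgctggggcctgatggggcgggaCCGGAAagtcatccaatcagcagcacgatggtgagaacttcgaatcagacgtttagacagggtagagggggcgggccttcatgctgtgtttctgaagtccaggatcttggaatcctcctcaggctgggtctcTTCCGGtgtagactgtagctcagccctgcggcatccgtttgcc
Zfp61 (chr7:24299500-24299799, minus strand): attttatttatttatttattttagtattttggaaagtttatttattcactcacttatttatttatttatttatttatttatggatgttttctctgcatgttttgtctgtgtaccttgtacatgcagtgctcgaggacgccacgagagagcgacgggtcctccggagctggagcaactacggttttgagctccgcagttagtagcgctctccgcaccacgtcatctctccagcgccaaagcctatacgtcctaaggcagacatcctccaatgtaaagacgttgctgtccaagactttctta
Zfp935 (chr13:62466763-62467062, minus strand): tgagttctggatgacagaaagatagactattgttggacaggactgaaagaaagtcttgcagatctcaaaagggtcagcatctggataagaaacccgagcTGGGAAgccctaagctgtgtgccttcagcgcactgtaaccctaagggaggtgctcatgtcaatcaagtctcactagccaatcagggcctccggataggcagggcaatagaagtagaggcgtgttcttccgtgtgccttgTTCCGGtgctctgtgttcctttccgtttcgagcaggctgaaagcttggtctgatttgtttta
Zfp68 (chr5:138619694-138619993, minus strand): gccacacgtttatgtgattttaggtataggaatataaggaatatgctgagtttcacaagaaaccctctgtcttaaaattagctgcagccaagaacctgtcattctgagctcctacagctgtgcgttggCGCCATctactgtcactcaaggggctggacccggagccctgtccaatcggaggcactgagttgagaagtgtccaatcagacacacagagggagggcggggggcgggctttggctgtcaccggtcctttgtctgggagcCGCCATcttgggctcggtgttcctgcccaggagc
Zfp65 (chr13:67729124-67729423, minus strand): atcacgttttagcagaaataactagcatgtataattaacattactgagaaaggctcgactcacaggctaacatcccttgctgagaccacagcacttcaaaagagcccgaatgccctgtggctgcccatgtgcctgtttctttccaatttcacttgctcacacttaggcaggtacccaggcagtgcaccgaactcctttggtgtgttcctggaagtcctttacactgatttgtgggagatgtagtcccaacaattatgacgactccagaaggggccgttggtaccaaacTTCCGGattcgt
Zfp931 (chr2:178078376-178078675, minus strand): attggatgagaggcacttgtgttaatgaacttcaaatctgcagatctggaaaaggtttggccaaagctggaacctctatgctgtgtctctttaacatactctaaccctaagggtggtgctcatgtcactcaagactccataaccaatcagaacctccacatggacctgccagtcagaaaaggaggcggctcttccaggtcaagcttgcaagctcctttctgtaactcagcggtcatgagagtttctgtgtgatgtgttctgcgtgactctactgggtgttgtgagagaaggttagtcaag
In capitals, Zfp105 and Zfp65 each held 1 ETS match, Zfp267 held 2 ETS and 1 RBPJ match, Zfp935 held 1 of each, and Zfp68 held 2 YY1 matches. Zfp61, which rose, and Zfp931, which fell, held no match. The most alike pair was Zfp935, which rose, and Zfp931, with 60.6% identical columns in a global alignment, against 50.8% to 58.5% for the other 20 pairs.

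Across the 191 promoters, where 1 entry per gene was read, the ETS letters stood in 36.1%, against 25.5% of the 12755 promoters of tested genes. RBPJ letters stood in 31.4% against 23.6%, and YY1 letters in 19.4% against 14.2%. The CRE was in 2.09% against 3.03%, AP-1 in 4.71% against 5.16%, ATF4 in 0.524% against 2.31%, EGR in 6.81% against 10.3%, the E-box in 5.76% against 9.5% and NRF1 in 11.5% against 12.3%. Of the 140 promoters of members higher after thapsigargin, 40.7% held ETS and 36.4% RBPJ letters, against 23.5% and 17.6% of the 51 others. YY1 letters stood in 22.1% against 11.8%, AP-1 in 2.86% against 9.8%, EGR in 6.43% against 7.84% and NRF1 in 10.7% against 13.7%. The E-box was in 5% against 7.84%, the CRE in 2.14% against 1.96% and ATF4 in 0.714% against 0%. The 140 and 51 promoters had nearly the same GC content, with medians of 55.7% and 56%. Over all 191 the median was 55.7%, against 60.3% for promoters of tested genes. The shares are descriptions of letters in these windows, and binding was not measured.

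Thapsigargin was followed by higher RNA of most Zfp-named genes. Of the 237 genes, 174 were higher than in control (73.4%) at an adjusted p under 0.05 in edgeR's quasi-likelihood test, where 16.4% of all genes tested were higher. Only 2 were lower, Zfp931 and Zfp706, where 14.8% of all genes were lower. The other 61 were not called, and 31.2% of all genes were called in either direction. The median log2 fold change of the 237 genes was 0.46, a 1.37-fold difference, against -0.05 over all genes tested. The fold change was above 0 in 215 genes (90.7%, against 42.7% of all genes). The 4 thapsigargin libraries all lay above the 4 controls in 170 of them, which holds for 16.7% of all genes tested. With library totals alone as the scaling, 3584 of all genes were higher and 1280 lower, against 2800 and 2531 with TMM factors. The increases were small: 77 of the 237 genes were called and over 1.5-fold higher (32.5%, against 4.7% of all genes). Only 4 reached 2-fold, as did 170 of the 17077 genes tested. The control libraries that set the level rule also enter this comparison, whereas the comparison with calcium-free medium, below, does not use their levels.

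The summed level of the 237 genes was 5758, 5778, 5710 and 6478 CPM in control replicates 1 to 4. It was 7057, 7095, 7100 and 8005 CPM with thapsigargin, and 6000, 5896, 5874 and 6399 CPM in calcium-free medium. Every thapsigargin library was above every control and calcium-free library, and the control and calcium-free libraries overlapped. Replicate 4 was the highest of each group. The ratio of thapsigargin to the control of the same number was 1.23, 1.23, 1.24 and 1.24, so it was the same size in replicate 4 as in the others. With replicate 4 of every group left out, 82.3% of the members were higher, against 24.4% of all genes, and 173 of the 174 genes were called again.

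**Figure D1:**
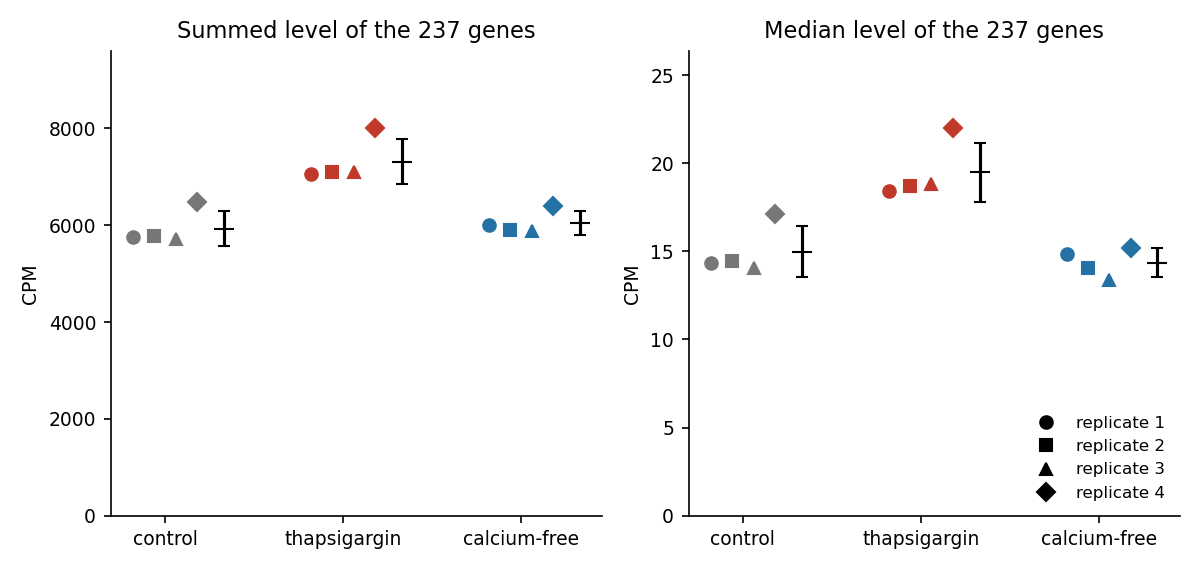
Summed level (left) and median level (right) of the 237 Zfp-named genes in each library, in CPM with TMM library sizes, with the mean and SD of each group of 4 in black. The thapsigargin libraries lie at 7057 to 8005 CPM summed, above all control and calcium-free libraries, and replicate 4 (diamonds) is the highest of each group.

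Summed astrocyte markers were at 7320 to 8379 CPM with thapsigargin against 8213 to 9272 in control, and 3 of the 11 passed the test as lower and 1 as higher. Summed microglia markers were at 62.2 to 91.7 against 75.5 to 121.5 CPM (2 of 7 lower), and neuron markers at 330.9 to 366.7 against 379.4 to 409.4 CPM (1 of 6 lower). Oligodendrocyte lineage markers were at 1467 to 1822 against 1568 to 1719 CPM (1 of 6 higher), and proliferation markers at 1278 to 1604 against 1316 to 1714 CPM (1 of 5 lower). Vascular and fibroblast markers were at 367.4 to 1218 against 515.6 to 1432 CPM (0 of 7 called). Replicate 4 was the lowest of both groups there, and each thapsigargin library was below the control of the same number. Of all genes, 16.4% were higher and 14.8% lower. The part of these shifts in the rise of the Zfp-named genes was not tested.

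**Figure D2:**
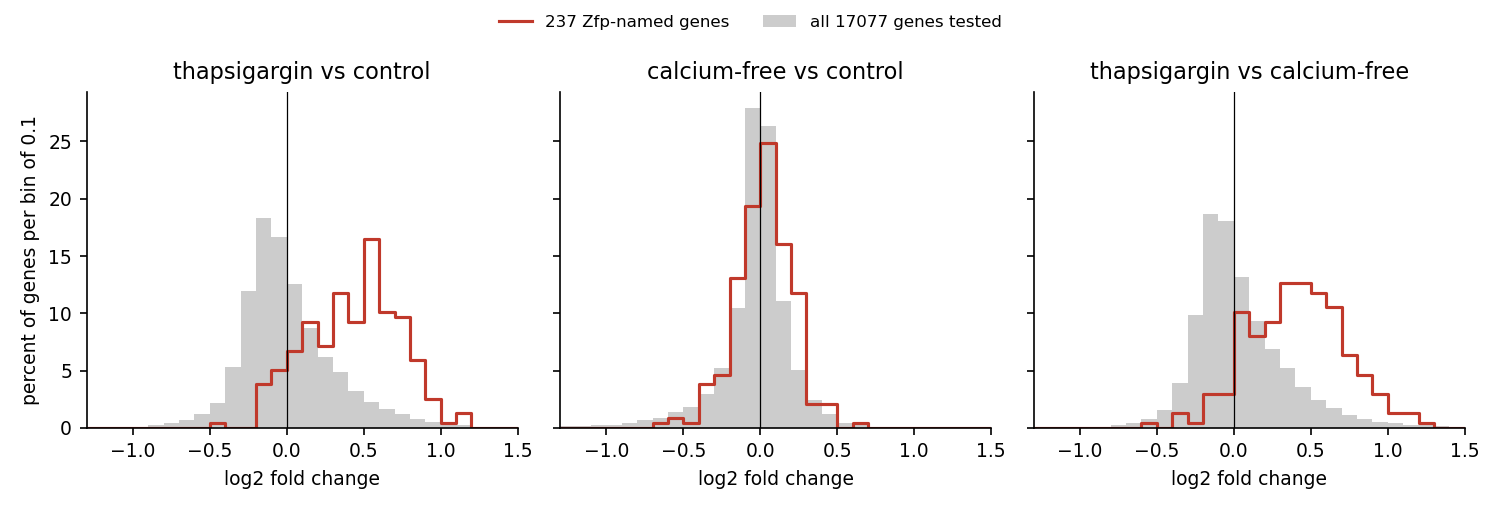
Share of genes per bin of 0.1 in log2 fold change for the 237 Zfp-named genes (red line) and all 17077 genes tested (grey), in the 3 comparisons. The Zfp-named genes are centred at 0.46 for thapsigargin against control and at 0.42 for thapsigargin against calcium-free medium, and near 0 for calcium-free medium against control.

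The largest increase was that of Zfp105, a gene of 11 fingers on chromosome 9 (122752105 to 122764325, GRCm39). It was at 8.62, 8.45, 7.95 and 10.9 CPM in control, at 18.1, 18.6, 19.3 and 22.3 CPM with thapsigargin and at 10.5, 9.70, 9.49 and 10.6 CPM in calcium-free medium. The thapsigargin libraries stood clear of the rest, and the calcium-free libraries overlapped the controls. The log2 fold change with thapsigargin was 1.12 ± 0.10 (SE, adjusted p = 6.41e-06). Zfp267 on chromosome 3 (36205233 to 36224491) was next, at 16.0, 17.7, 16.3 and 20.0 CPM in control and 37.6, 35.3, 37.1 and 41.1 CPM with thapsigargin, a change of 1.11 ± 0.08 (adjusted p = 9.75e-07). Its calcium-free libraries, at 14.3 to 16.2 CPM, reached below all controls and overlapped only the lowest of them.

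Zfp51, a KRAB gene of 19 fingers in the large cluster on chromosome 17 (21670636 to 21685853), moved in both treatments. It was at 5.70, 5.93, 5.63 and 6.32 CPM in control, at 11.5, 11.7, 12.7 and 14.9 CPM with thapsigargin and at 8.31, 8.37, 7.85 and 7.88 CPM in calcium-free medium. None of the 3 groups overlapped another. Its changes against control were 1.10 ± 0.08 and 0.46 ± 0.09 (adjusted p = 2.23e-06 and 0.00972).

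Zfp61, a KRAB gene on chromosome 7 (23990470 to 24003273), was at 6.14 to 8.44 CPM in control and 12.6 to 17.9 CPM with thapsigargin, a change of 1.02 ± 0.15. Replicate 4 was the highest library of both groups. Zfp935 went from 5.49 ± 0.43 to 10.7 ± 0.35 CPM (SD, n = 4), Zfp623 from 7.82 ± 0.31 to 15.1 ± 2.42, Zfp68 from 18.4 ± 2.19 to 35.6 ± 2.95 and Zfp65 from 7.30 ± 1.15 to 14.1 ± 2.26 CPM. The 5 adjusted p lay between 1.3e-06 and 0.000224. Reads of Zfp935 and Zfp65 were divided between features in all 12 libraries, so their counts are uncertain, whereas all counts of Zfp623 and Zfp68 were whole.

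**Figure D3:**
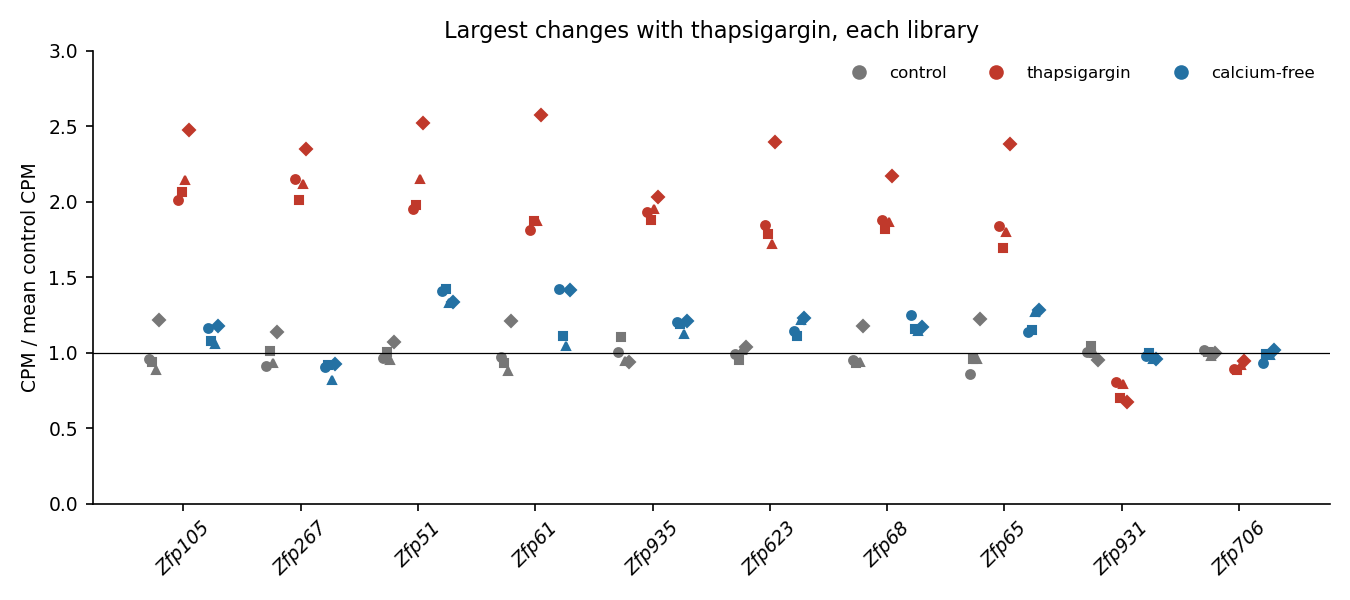
CPM of each library divided by the mean control CPM, for the 8 largest increases and the 2 decreases after thapsigargin (circles, squares, triangles and diamonds are replicates 1 to 4). The genes were chosen as called changes whose thapsigargin and control libraries do not overlap. By that choice, thapsigargin libraries of the 8 rising genes lie above all controls, and those of Zfp931 and Zfp706 below all controls.

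Zfp931 was the largest decrease. This KRAB gene on chromosome 2 (177708239 to 177721858) was at 17.4, 18.1, 17.2 and 16.4 CPM in control and at 14.0, 12.1, 13.7 and 11.7 CPM with thapsigargin. Its calcium-free libraries were within the control range, at 16.5 to 17.2 CPM. The log2 fold change with thapsigargin was -0.43 ± 0.06 (adjusted p = 0.000258), and its reads were divided between features in all 12 libraries. Zfp706, a short protein with 1 finger, was at 166.5, 164.6, 160.5 and 164.0 CPM in control and at 146.6, 145.1, 150.4 and 155.4 CPM with thapsigargin, a change of -0.13 ± 0.04 (adjusted p = 0.0137). That call was lost with library totals alone (adjusted p = 0.204) and with no filter on low counts (adjusted p = 0.132). Blocking on the replicate number, 7 members were lower (2.95%, against 28.2% of all genes) and 81.9% were higher (against 23%).

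Few of the members with the highest RNA per length passed the test as higher. Per kilobase of exon, Zfp664 led in control at 42.6 CPM, followed by Zfp706 at 37.1, Zfp703 at 31.8, Zfp91 at 31.3 and Zfp106 at 25.9 CPM. Of these 5, Zfp703, a developmental corepressor, went from 105.2 ± 4.13 to 155.3 ± 7.21 CPM, a change of 0.56 ± 0.04 (adjusted p = 1.95e-06). Zfp664, Zfp91 and Zfp106 had changes of -0.18 ± 0.07, 0.10 ± 0.03 and -0.17 ± 0.07 (adjusted p = 0.0546, 0.0512 and 0.0905). With the replicate block all 3 passed (adjusted p = 1.4e-05, 0.0103 and 0.00701). By control level, 62 of 77 members at 5 to 10 CPM were higher (80.5%), 62 of 79 at 10 to 20 (78.5%), 40 of 52 at 20 to 40 (76.9%) and 10 of 29 at 40 CPM or more (34.5%). Over all genes in those bins the shares were 25.9%, 31.8%, 25.5% and 12.8%. These shares are a description, since the control level chose the members and is also the base of the fold change. Against calcium-free medium, whose libraries did not set the bins, the shares of members higher with thapsigargin were 81.8%, 78.5%, 65.4% and 27.6%, and of all genes 25.2%, 28.9%, 21.2% and 8.91%.

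Just inside the level floor, Zfp53 stood at 5.19, Zfp239 at 5.21 and Zfp707 at 5.31 CPM by column total, with log2 fold changes of 0.59, 0.01 and 0.41 after thapsigargin. Just outside, Zfp182 stood at 4.92, Zfp560 at 4.92 and Zfp873 at 4.86 CPM, with changes of 0.53, 0.32 and 0.50. Of the 132 Zfp-named genes below the floor, 104 passed the filter for testing and 65 of those were higher (62.5%, against 16.4% of all genes). The filter can pass a gene on the libraries of 1 group alone, such as thapsigargin. That can tilt the share upward, so it is a description only. A floor of 2 CPM gave 224 higher of 303 members (73.9%), and a floor of 10 CPM gave 112 of 160 (70%).

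Among the members known from imprinting and from silencing of retroviral elements, Zfp568, a repressor of a placental Igf2 transcript, went from 7.83 ± 0.86 to 11.4 ± 0.62 CPM with thapsigargin (log2 fold change 0.54 ± 0.09, adjusted p = 0.000441). Zfp809, which silences murine leukaemia virus, was at 10.1, 10.2, 10.5 and 10.6 CPM in control and at 14.9, 15.3, 14.5 and 15.3 CPM with thapsigargin. The gap between these groups was wide beside the spread within them (0.53 ± 0.04, adjusted p = 4.06e-06). The imprinting regulators Zfp57 and Zfp445 had changes of 0.20 ± 0.16 and 0.14 ± 0.06 (adjusted p = 0.382 and 0.116), and Zfp932, which acts on endogenous retroviruses, of 0.05 ± 0.09 (adjusted p = 0.744). So 2 of the 5 listed genes were higher.

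Of 10 activators and chromatin or growth regulators, 9 were higher with thapsigargin, with a median log2 fold change of 0.40. Zfp263 went from 18.01 ± 1.93 to 30.2 ± 1.76 CPM (0.74 ± 0.10), and Zfp281, a regulator of pluripotency genes, from 33.6 ± 1.83 to 49.8 ± 3.06 CPM (0.57 ± 0.06). Zfp410, an activator of the remodeller gene Chd4, changed by 0.44 ± 0.06 and Zfp335, a brain growth regulator, by 0.30 ± 0.06. Zfp24, which oligodendrocytes need for myelination, changed by 0.29 ± 0.06, Zfp384 by 0.42 ± 0.10 and Zfp148 by 0.18 ± 0.04. The 7 adjusted p lay between 2.08e-05 and 0.00807. The call of Zfp148 was lost when the trend with exon length was removed (adjusted p = 0.232).

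Zfp131 was at 33.2, 32.2, 33.3 and 21.1 CPM in control, at 49.0, 49.1, 49.2 and 47.0 CPM with thapsigargin and at 40.6, 37.7, 38.7 and 25.4 CPM in calcium-free medium. Replicate 4 was far below the others in control and calcium-free medium and close to them with thapsigargin. The change with thapsigargin was 0.70 ± 0.15 (adjusted p = 0.00425). Zfp143, a promoter-binding activator, changed by 0.39 ± 0.12 (adjusted p = 0.0241), but its libraries overlapped those of control, and the call was lost without control replicate 1, 2 or 3 or thapsigargin replicate 4 (adjusted p = 0.0722, 0.0699, 0.0743 and 0.064). Zfp217, a cofactor of corepressor complexes, was at 23.8 ± 3.55 and 23.6 ± 3.26 CPM.

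Of 9 tested genes listed for development and neural lineage, 7 were higher with thapsigargin, among them Zfp703, given above, and Zfp711, which is not a member. Zfp292 was at 20.1 to 29.9 CPM in control and 33.3 to 44.7 CPM with thapsigargin (0.69 ± 0.14), and Zfp503, a regulator of striatal development, went from 5.54 ± 0.70 to 8.46 ± 0.90 CPM (0.61 ± 0.10). Zfp462 changed by 0.42 ± 0.11, Zfp423 by 0.23 ± 0.06 and Zfp521 by 0.16 ± 0.04. Their adjusted p lay between 0.000635 and 0.0175. The calls of Zfp423 and Zfp521, long genes with 27 fingers each, were lost when the length trend was removed (adjusted p = 0.175 and 0.593), and that of Zfp423 also without control replicate 1 or 2 (adjusted p = 0.0577 and 0.054). Zfp536, a repressor of neuronal differentiation, had a change of 0.28 ± 0.25, and Zfp365, which binds the scaffold protein DISC1, of -0.12 ± 0.08 (adjusted p = 0.46 and 0.276). Blocked on replicate number, both passed (adjusted p = 0.00488 and 0.0286).

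Of 10 genes listed for roles outside DNA binding, of which Zfp385a is not a member, 5 were higher with thapsigargin, and the median change was 0.14. Zfp598, the ubiquitin ligase that senses collided ribosomes, was at 43.5, 43.1, 43.0 and 48.1 CPM in control and at 52.6, 56.1, 55.8 and 64.3 CPM with thapsigargin (0.36 ± 0.09, adjusted p = 0.00602). Zfp622, a factor of large ribosomal subunit maturation, changed by 0.30 ± 0.05, Zfp346, a binder of double-stranded RNA, by 0.37 ± 0.05, Zfp638 by 0.35 ± 0.07 and Zfp330 by 0.15 ± 0.04 (adjusted p from 0.000102 to 0.0125). Zfp207, a spindle assembly factor, had a change of -0.09 ± 0.07, and Zfp326, an RNA splicing and elongation factor, of 0.12 ± 0.07 (adjusted p = 0.353 and 0.274), and both passed with the replicate block (adjusted p = 0.0216 and 0.00844). Both genes for factors that bind the neurotrophin receptor p75 were members. Zfp110 went from 18 ± 2.18 to 28.5 ± 3.07 CPM (0.66 ± 0.09, adjusted p = 0.000119), and Zfp369 was at 34.8 ± 3.69 and 36.7 ± 1.16 CPM (0.08 ± 0.06, adjusted p = 0.412).

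**Figure D4:**
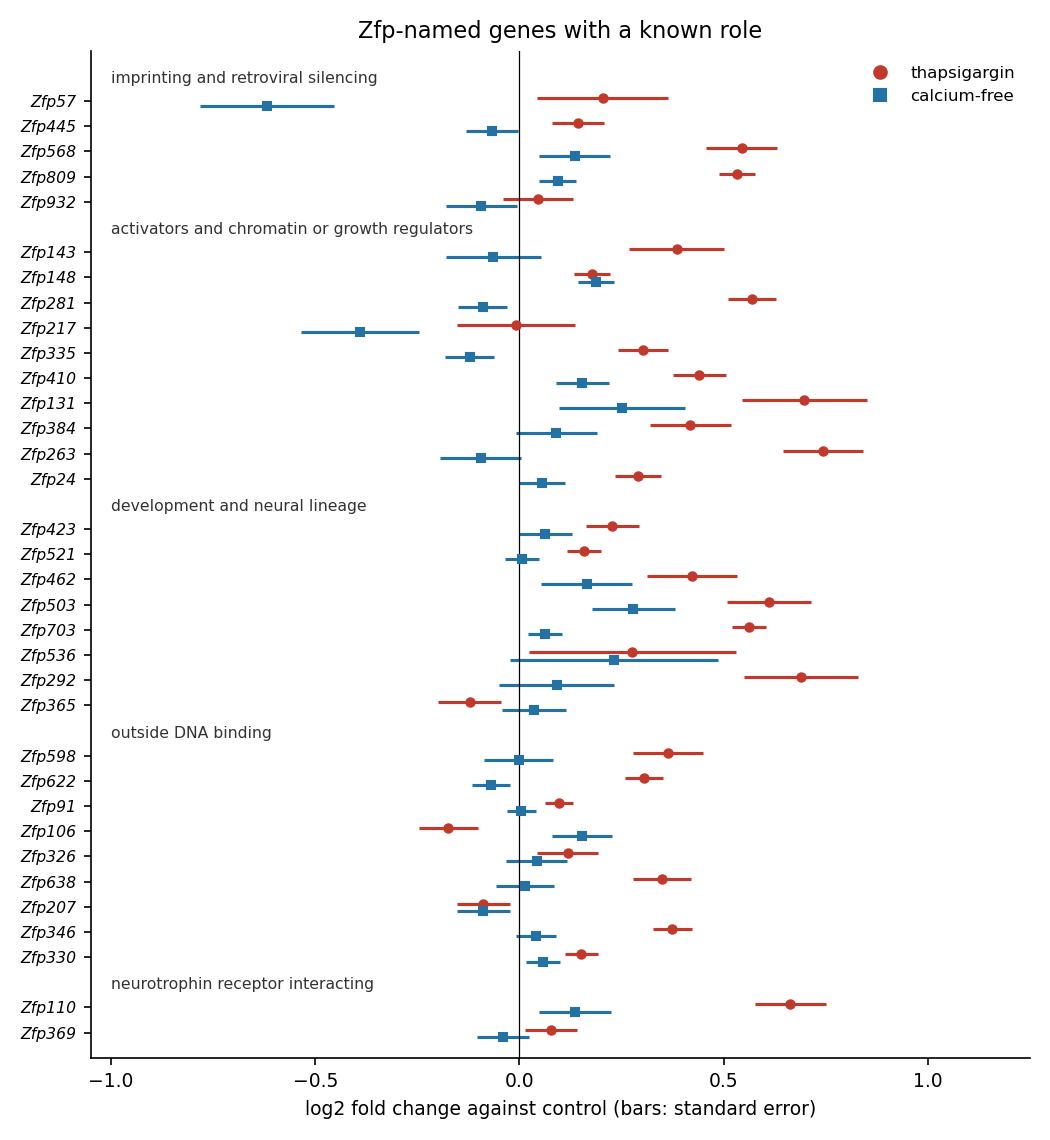
Log2 fold change against control of 34 Zfp-named genes with a known role, in 5 groups, for thapsigargin (red circles) and calcium-free medium (blue squares), with bars of 1 SE. Most thapsigargin points lie right of 0, and most calcium-free points lie near 0, with Zfp57 the farthest to the left at -0.62.

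The share of members called higher with thapsigargin grew with the length of the finger array. Fingers were counted in the longest reading frame of GENCODE M21 transcripts, which matched 234 of the 237 genes, by a pattern that asks for a hydrophobic residue inside the finger. The median was 10 fingers and the maximum 30, in Zfp236. Without that residue in the pattern the median was 10 and the maximum 36, in Zfp142, and the shares higher over the bins below were 54.2%, 59.6%, 75.6% and 89.7%. Of members with 0 to 2 fingers, 14 of 27 were higher (51.9%, median log2 fold change 0.17). With 3 to 7 fingers this was 37 of 61 (60.7%, 0.34), with 8 to 12 fingers 63 of 81 (77.8%, 0.50) and with 13 or more 59 of 65 (90.8%, 0.58). Control levels fell along these bins, with medians of 30.1, 17.7, 13.4 and 11.9 CPM. Below 20 CPM in control, 28 of 43 members with under 8 fingers (65.1%) and 95 of 110 with 8 or more (86.4%) were higher. At 20 CPM or more these were 23 of 45 (51.1%) and 27 of 36 (75%).

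A KRAB signature was found in 108 of the reading frames, which held a median of 12 fingers, and the 126 without it held 6. Of the KRAB genes 89 were higher with thapsigargin (82.4%, median 0.54), and of the others 84 (66.7%, median 0.38). Their median control levels were 10.4 and 23.1 CPM. Below 20 CPM the shares were 84.2% of 95 KRAB genes and 74.1% of 58 others, and at 20 CPM or more 69.2% of 13 and 60.3% of 68. The signature is a pattern search, so a diverged KRAB box could be missed.

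**Figure D5:**
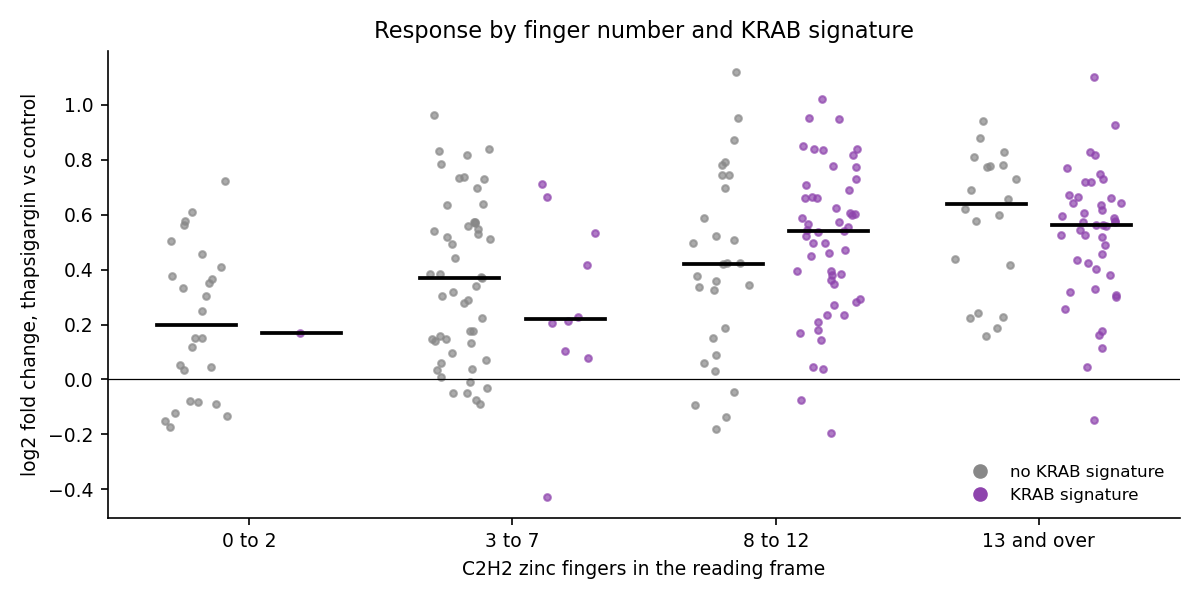
Log2 fold change of thapsigargin against control by the number of C2H2 fingers, for members with (purple) and without (grey) a KRAB signature, with each gene as a point and medians as lines. The share of genes that passed the test as higher grows to the right, from 14 of 27 with 0 to 2 fingers to 59 of 65 with 13 or more.

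Members had longer exons than other genes, with a median of 5127 bases against 3597 over all genes tested. Across all tested genes, longer genes had higher thapsigargin fold changes (Spearman's rho = 0.26 over 17077 genes, which share the libraries), whereas across the 237 members rho was 0.02. Members under 3000 bases were higher in 74.3% of cases, where 8.28% of all genes of that length were. From 3000 to 5000 bases the shares were 69.9% and 18.8%, from 5000 to 8000 bases 89.8% and 23.6%, and from 8000 bases on 61.7% and 25.2%. With the length trend over all genes removed, 159 members were higher and 4 lower, with a median of 0.40.

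Reads shared between related genes touch many members. In 187 of the 237 genes at least 1 library had a count that was not whole, as when a read is divided between features, and 37.5% of their values were not whole, against 29.3% over tested genes. Of the 50 members with whole counts in all libraries, 44 were higher with thapsigargin (88%, median 0.52). Of the 187 with a divided count 130 were higher (69.5%, median 0.42), and of the 31 with divided counts in all 12 libraries 19 were (61.3%, median 0.40). Of 193 members whose span overlapped no other tested gene, 144 were higher (74.6%). Whether counting used strand is not given in the sources used here, so values of genes overlapped on the other strand, such as Zfp597 with Naa60, are uncertain. Zfp61 overlaps Zfp94, and Zfp628 overlaps Nat14, on the same strand. No strand setting separates these, so their values are uncertain too.

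Many members lie in clusters. With gaps of at most 1 Mb between starts, 16 runs of 4 or more members held 101 of the 237 genes, and 79 of these were higher with thapsigargin (78.2%), against 95 of the 136 members outside the runs (69.9%). Of 152 other coding genes tested inside the same spans, 26 were higher (17.1%). The longest run, on chromosome 17 (21229203 to 23818729, GRCm39), held 15 members, of which 12 were higher with a median of 0.54, and all 3 other coding genes tested there were higher too. On chromosome 7 (29467977 to 29869225), a run of 11 members without other tested coding genes had 8 higher. All 8 members on chromosome 6 from 47812567 to 48598482 were higher, with changes of 0.36 to 0.78, beside 1 of 6 other coding genes. On chromosome 7 from 23781303 to 24929688, 7 of 8 members and 1 of 16 other coding genes were higher.

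Calcium-free medium changed few Zfp-named genes. Against control, 17 of 237 were higher (7.17%, against 3.78% of all genes) and 5 lower (2.11%, against 1.55%), with 5.33% of all genes called in either direction, and the median log2 fold change was 0.04, against -0.01 over all genes. The fold change was above 0 in 136 members (57.4%, against 47.2% of all genes). The 4 calcium-free libraries lay above the 4 controls in 26 members and below them in 11, which holds for 6.04% and 4.43% of all genes. At an unadjusted p under 0.05, 47 members were higher and 23 lower, where 9.79% and 7.95% of all genes were. A fit blocked on replicate number called 49 higher and 28 lower, where 10.4% and 7.01% of all genes were. Without replicate 4 of every group, 60 were higher and 17 lower, where 10.5% and 5.16% of all genes were. Replicate 4 went the other way. In replicates 1 to 4, 68.8%, 57.8%, 60.8% and 38.8% of members were above the control of the same number. Their median log2 ratios were 0.087, 0.033, 0.052 and -0.042. Of all genes, 45.7%, 50%, 49.3% and 50.1% were above it. Upper quartile scaling gave 14 higher and 8 lower, and 524 and 372 over all genes, against 646 and 265 with TMM factors.

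These counts also depended on individual libraries. The number higher was 7, 9, 9 and 26 without control replicates 1, 2, 3 and 4, 11 without thapsigargin replicate 1 or 2, and 7 and 8 without calcium-free replicates 2 and 3. The number lower was 0 without control replicate 1, 2 or 4, thapsigargin replicate 1, 2 or 3, or calcium-free replicate 2 or 3, and 1 without control replicate 3, while DESeq2 on all libraries gave 10. Over all genes the counts moved as well in fits with 1 library left out, from 296 to 849 higher and from 76 to 600 lower. Of the 17 genes, 6 were called in every fit with a library left out, and all 17 with the block.

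The largest called increase in calcium-free medium was that of Zfp628 on chromosome 7 (4918181 to 4925002), a gene of 16 fingers. A larger log2 fold change of 0.602, in a member without a matched reading frame, was not called. Zfp628 was at 9.51, 8.501, 9.81 and 9.38 CPM in control, at 13.4, 12.4, 12.97 and 13.6 CPM in calcium-free medium and at 16.8, 17.7, 16.9 and 20.0 CPM with thapsigargin. The 3 groups did not overlap. Its changes against control were 0.50 ± 0.07 in calcium-free medium (adjusted p = 0.00178) and 0.94 ± 0.07 with thapsigargin. Zfp516, an activator of the brown fat gene Ucp1, went from 34.6 ± 1.43 to 43.5 ± 1.48 CPM (0.33 ± 0.04, adjusted p = 0.00109), and Zfp74 and Zfp790, both in the run of 11 members on chromosome 7, changed by 0.43 ± 0.06 and 0.40 ± 0.08 (adjusted p = 0.00266 and 0.0108).

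Zfp35 and Zfp942 were also higher (0.33 ± 0.07 and 0.33 ± 0.08), as was Zfp597 (0.44 ± 0.11), with adjusted p of 0.0251, 0.0308 and 0.0409. Each of these 3 calls was lost in some fits with a library left out, where adjusted p reached 0.0787, 0.0929 and 0.119. Those of Zfp628, Zfp51, Zfp74, Zfp790 and Zfp516 were kept in all 22 alternatives run.

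Zfp57, the KRAB protein that maintains imprints, had the largest decrease in calcium-free medium. It was at 6.24, 6.11, 6.89 and 7.97 CPM in control, at 5.94, 4.26, 3.15 and 4.38 CPM in calcium-free medium and at 6.74, 7.61, 8.49 and 8.51 CPM with thapsigargin. The calcium-free libraries lay below all controls, with replicate 1 close to them and replicate 3 the lowest. The change was -0.62 ± 0.16 (adjusted p = 0.0495), and it ran from -0.79 to -0.49 with adjusted p from 0.00668 to 0.14 over 22 alternatives. Zfp691, Zfp952 and Zfp956 were lower in calcium-free medium (-0.39 ± 0.10, -0.29 ± 0.07 and -0.36 ± 0.09) and higher with thapsigargin (0.56 ± 0.10, 0.56 ± 0.07 and 0.38 ± 0.09). Zfp251 went from 25.5 ± 0.67 to 21.8 ± 2.01 CPM in calcium-free medium (-0.23 ± 0.06). Adjusted p for these 4 decreases ran from 0.0416 to 0.0484, and each was lost in 12 to 15 of the 22 alternatives.

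Thapsigargin and calcium-free medium were compared directly, which tests the difference between the treatments without the control levels. Of the 237 genes, 167 were higher with thapsigargin than in calcium-free medium (70.5%, against 14.6% of all genes) and 4 were lower (1.69%, against 13.2%). The median log2 difference was 0.42, against -0.02 over all genes. With library totals alone, 3456 of all genes were higher and 974 lower, against 2498 and 2259 with TMM factors. The libraries did not overlap, with thapsigargin above, in 167 members, which holds for 14.9% of all genes. The difference was above 0 in 218 members (92%, against 46.2% of all genes), and 70 of the called members were over 1.5-fold higher, as were 4.32% of all genes. With the replicate block 79.7% were higher and 9 genes (3.8%) lower, where 22.4% and 26.9% of all genes were. Of the members, 140 were higher than in both other groups with no call between those 2 groups in the fit without the block, 13 were higher in all 3 comparisons, and 48 passed in none. These joint counts were not made over all genes, so they have no background share. Between calcium-free medium and control, 5.33% of all genes were called.

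Zfp267, described above, had the largest difference, at 1.27 ± 0.08 (adjusted p = 1.73e-06). Zfp39 on chromosome 11 (58778979 to 58795051) was at 12.3, 12.4, 13.5 and 15.8 CPM with thapsigargin and at 5.37, 4.93, 5.80 and 7.46 CPM in calcium-free medium, a difference of 1.19 ± 0.16 (adjusted p = 0.000232). Its controls, at 6.13 to 9.89 CPM, overlapped the calcium-free libraries. Zfp870, Zfp719, Zfp87, Zfp763, Zfp775 and Zfp84 differed by 1.00 to 1.173, and their calcium-free changes against control, from -0.51 to -0.16, did not pass the test. With the replicate block, the calcium-free decreases of Zfp39, Zfp870, Zfp87, Zfp763 and Zfp84 passed (adjusted p = 0.00402, 0.000402, 0.00126, 0.000343 and 0.0448). Of the 6 genes from Zfp870 to Zfp84, all but Zfp775 carried a KRAB signature.

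Zfp704 was the largest of the 4 lower genes. It was at 27.0, 26.3, 28.4 and 30.7 CPM with thapsigargin and at 31.6, 41.2, 47.0 and 42.0 CPM in calcium-free medium, with controls at 29.4 to 33.8 CPM. All calcium-free libraries were above all thapsigargin libraries, and the spread among them was wide. The difference was -0.53 ± 0.10 (adjusted p = 0.00226), and the change in calcium-free medium against control was 0.38 ± 0.10 (adjusted p = 0.0524, and 0.00625 with the replicate block). Zfp106, an RNA-binding protein needed in motor neurons and muscle, was at 220.4 ± 16.3 CPM with thapsigargin and 276.5 ± 27.4 CPM in calcium-free medium, a difference of -0.33 ± 0.07 (adjusted p = 0.00536). Zfp148 was called higher than control in both treatments, at 0.18 ± 0.04 and 0.19 ± 0.04, and the difference between the treatments was -0.01 ± 0.04 (adjusted p = 0.904).

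Other zinc finger genes were read for comparison by their symbols. With thapsigargin, where 16.4% of all genes were higher and 14.8% lower, 27 of 40 Zbtb genes, whose proteins join fingers to a BTB domain, were higher and 2 lower, with a median of 0.40. Of Zscan and Zkscan genes, which carry a SCAN domain, 15 of 21 were higher (median 0.54), and of Klf and Sp genes 15 of 25 (median 0.39). Zc3h genes, whose fingers bind RNA, were higher in 9 of 18 cases (median 0.22), Zmym and Zmynd genes in 5 of 11 (median 0.16), and Zfhx, Zic and Zeb genes in 3 of 10 (median 0.14). Of 20 Zdhhc genes, which share the letter Z but encode palmitoyltransferases, 1 was higher (5%) and 4 lower (median -0.10).

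The corepressor machinery that KRAB proteins use was read from a list of 33 genes. Of these, 11 were higher with thapsigargin (33.3%, against 16.4% of all genes) and 2 lower (6.06%, against 14.8%). The median was 0.02, against -0.05 over all genes. Trim28, which binds the KRAB domain, was at 216.7 to 285.3 CPM in control and 224.4 to 284.1 CPM with thapsigargin (-0.00 ± 0.11), and Setdb1 had a change of 0.22 ± 0.09 (adjusted p = 0.0846, and 7.59e-06 with the replicate block). Resf1, a retroelement silencing factor that works with Setdb1, was at 25, 25.4, 24.6 and 24.0 CPM in control and 55.5, 56.2, 56.6 and 49.4 CPM with thapsigargin, without overlap (1.14 ± 0.08, adjusted p = 1.6e-06). Morc3 changed by 0.78 ± 0.07, and Trim33 and Trim24, relatives of Trim28, by 0.71 ± 0.07 and 0.65 ± 0.06. Smarcad1, Daxx, Atf7ip, Tasor, Mphosph8, Suv39h2 and Ehmt1 were higher by 0.24 to 0.52. Cbx5, which encodes heterochromatin protein 1 alpha, changed by -0.18 ± 0.05 and Sumo2 by -0.20 ± 0.07, and the 12 adjusted p from Morc3 on lay between 4.88e-06 and 0.0448. In calcium-free medium 2 of the 33 genes were higher (6.06%, against 3.78% of all genes). These were Trim33 and Tasor, by 0.33 ± 0.07 and 0.38 ± 0.06 (adjusted p = 0.0251 and 0.00608).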

How the data were processed

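The authors deposited expected counts, that is, fractional read counts per gene, for 12 libraries, with gene coordinates on GRCm39. The submitters' processing notes name featureCounts 1.6.4 from Subread, the aligner STAR 2.7.2b, the trimmer cutadapt 1.17 and, for base call conversion, bcl2fastq 2.20.0.422. The library kit marks strand, and the strand setting of the counting is not given in the sources used here. Counts were rounded and tested with edgeR 4.0.16 in R 4.3.3 (robust quasi-likelihood test, TMM factors, filterByExpr with a minimum count of 10, 1 mean per group over all 12 libraries). Benjamini-Hochberg adjustment ran over all 17077 genes tested in each comparison, and called means an adjusted p under 0.05. Printed CPM use TMM library sizes, except for the level rule, which uses column totals. The members and gene lists were chosen with earlier results of these data known.

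Named genes were the 8 largest called changes without overlap in each direction and comparison, all members of the known-role lists, the 3 genes on each side of the floor, the 5 highest per kilobase and the called silencing genes. A few others, such as the overlapping Zfp597 and Zfp61 pairs, were named after their values were seen. The replicate block took the numbers to pair the samples. Same-numbered libraries deviated together most in replicate 4 (r from 0.929 to 0.943 over 3 pairs). In replicates 1 to 3, r was 0.318 to 0.755 over 9 pairs, so r set same-numbered libraries apart only for replicate 4. Among replicates 1 to 3, pairs with different numbers were as alike (0.456 to 0.735), and nothing used here says which replicates share a culture, so p-values measure the spread between these libraries. On simulated counts for thapsigargin against control, 20%, 90%, 96% and 100% of 50 genes each were recovered at 1.2-, 1.5-, 2- and 4-fold, over 17077 genes. In that simulation 11 unchanged genes were called. The changed genes were all above 5 CPM and far fewer than those called in the data. Libraries were drawn independently, with no replicate 4 set apart, so recovery in the data can differ. Alternatives were other scalings, DESeq2 1.42.0, no filter, a replicate block, removal of the exon length trend, only the groups compared, other level floors, and fits with libraries left out.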

Additional observations from a re-analysis of the deposited data

Results flagged for a closer look

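In 38 of 207 groups of 4 libraries, 1 library stood apart: its gap to the nearest other, divided by the range of the group, was above Dixon's 95% critical value. Chance gives about 1 in 20 for independent groups, but these groups share the same 12 libraries. The share over all genes was not counted, so whether the number is particular to the Zfp-named genes was not tested. In 37 of the 38, the library apart was replicate 4, the one with Xist RNA.

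In control, replicate 4 was apart in the summed level of the Zfp-named genes (6478 CPM) and in their median (17.12 CPM). Single genes apart and high there were Zfp68 (21.65 CPM), Zfp143 (18.29), Zfp217 (29.1), Zfp384 (41.71), Zfp462 (57.7), Zfp536 (16.27), Zfp292 (29.86), Zfp598 (48.12), Zfp638 (93.42), Zfp110 (21.25) and Zfp369 (40.31 CPM). Zfp131 was apart and low, at 21.15 CPM.

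With thapsigargin, replicate 4 was again apart in the summed level (8005 CPM) and in the median (21.99 CPM). The genes apart and high were Zfp61 (17.9 CPM), Zfp68 (39.93), Zfp691 (10.06), Zfp775 (13.43), Zfp143 (22.84), Zfp384 (56.37), Zfp263 (32.8), Zfp462 (70.18), Zfp292 (44.72), Zfp638 (114.7), Zfp664 (170.9) and Zfp239 (6.548 CPM). Zfp131 was apart and low, at 47.04 CPM. The exception to replicate 4 was Zfp932, low in replicate 1 at 18.15 CPM.

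In calcium-free medium, replicate 4 was apart and high in Zfp691 (5.103 CPM), Zfp870 (6.8), Zfp775 (6.379), Zfp143 (15.89), Zfp217 (23.66), Zfp326 (55.58), Zfp664 (167.7) and Zfp239 (7.487 CPM). Zfp143 was the gene among these apart and high in every group.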

How the results depend on the processing

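The rise of the Zfp-named genes with thapsigargin was seen under every alternative run, with 112 (a floor of 10 CPM, 160 members) to 224 (a floor of 2 CPM, 303 members) called higher against 174, and medians of 0.385 to 0.529. Of the 174 genes, 174 were called again with the replicate block, 174 with DESeq2, 159 without the length trend and 157 in every fit with a library left out. Against calcium-free medium, 104 were higher at a floor of 10 CPM.

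The number lower with thapsigargin was 4 with upper quartile factors, 1 with library totals, 1 with no filter, 7 with the block, 4 without the length trend, 16 with block and length together, 4 without replicate 4 of every group and 2 to 4 with single libraries left out (4 without thapsigargin replicate 4). Against calcium-free medium it was 9 with the block and 12 with block and length.

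In calcium-free medium, the number higher was 30 with DESeq2, 49 with the block, 49 with block and length, 9 with only the groups compared, 60 without replicate 4 of every group, 9 at a floor of 10 CPM and 7 to 26 with single libraries left out. The number lower was 8 with upper quartile factors, 3 with library totals, 10 with DESeq2, 1 with no filter, 28 with the block, 2 without the length trend, 36 with block and length, 0 with only the groups compared, 17 without replicate 4 of every group, 1 at a floor of 10 CPM and 0 to 7 with single libraries left out. The median ran from -0.007 (without calcium-free replicate 4) to 0.077 with single libraries left out. The cause was not tested. Counts over all genes moved as well, and are given with the comparison.

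With thapsigargin, Zfp217 was at 0.006 with DESeq2 size factors in edgeR, 0.061 with library totals, 0.008 with DESeq2, 0.024 with no filter, 0.043 without replicate 4 of every group and -0.109 to 0.103 with single libraries left out, against -0.009. Zfp932 was at -0.044 and Zfp369 at -0.039 without the length trend, and at -0.042 and -0.038 with the block as well. Of 73 called values of named genes, 59 were called in all 22 alternatives.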
